A study of Mus musculus with 36 samples.

Results

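Mouse macrophages of the established line RAW264.7 were compared after exposure to the peptide 65–79*PE together with IFNγ and after PBS, in replicates 4 to 6 of each group. The comparison held 6 libraries, 3 of each group, of 36 in the series and of 18 in its IFNγ experiment. Its members were chosen by their group and replicate labels, with earlier results of these data known. The peptide is a synthetic chain of residues 65 to 79 of the human HLA-DRβ chain that carries the protective epitope, named for HLA-DRB1 alleles that go with less autoimmune disease. The dose of peptide was 100 µg/ml and that of IFNγ 5 ng/ml, and the cells were harvested after 72 h. The titles of the control libraries name PBS followed by IFNγ. The sources used here did not settle whether those cells also received the cytokine. The experiment had no library of 65–79*PE without a cytokine and, besides these controls, none labelled with IFNγ and no peptide. The peptide and the cytokine therefore cannot be told apart in this contrast. All cells came from 1 line, and a larger share of responding cells cannot be told apart from more RNA per cell in such bulk samples.

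Interferon gamma is the main cytokine by which lymphocytes activate macrophages. It binds a receptor of the chains IFNGR1 and IFNGR2, whose kinases JAK1 and JAK2 start the signal to the nucleus. The signal acts on the gamma activated site (GAS) of target genes and induces IRF1, a transcription factor that acts on the interferon stimulated response element (ISRE) and on the gene of CIITA, the master regulator of MHC class II genes. Macrophages activated in this way are known for antigen presentation, production of nitric oxide, and GTPases that attack the vacuoles of intracellular microbes.

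The libraries held 26739977 to 63155889 counts, and 3 counts, the upper limit that a count of 0 allows, came to 0.0475 to 0.112 CPM, the usual unit of counts scaled to the size of the library. Intervals and limits of this kind cover counting error only. Genes of macrophages were high in every library. Cd68, a lysosomal marker, lay between 653 and 962 CPM, and Spi1, the gene of the lineage factor PU.1, between 157 and 178 CPM. Mertk, a receptor for the uptake of dead cells, stayed at or under 0.272 CPM. Markers of NK cells and epithelium had no count, and those of B cells, neutrophils and fibroblasts summed to at most 0.634 CPM. The 4 endothelial markers summed to 1.01 to 1.49 CPM over both groups, and of these only Kdr passed the filter on low counts. Of 6 T cell markers only Lck passed the filter on low counts, at 7.81 to 12.2 CPM in both groups, while Cd3d, Cd3e, Cd3g and Trac had no count. The 4 dendritic cell markers summed to 0.744 to 1.07 CPM in PBS and 4.42 to 6.90 CPM in 65–79*PE. Clec9a and Xcr1 were the members called higher, Zbtb46 was not called, and Flt3 had no count in 65–79*PE. The part of other cells in the results was not tested beyond these sums.

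The libraries were rich in RNA that carries no poly(A) tail. Small noncoding RNA took 20.7% ± 1.16 (SD, n = 3) of the counts in PBS and 20.8% ± 1.94 in 65–79*PE, against 0.174% to 0.242% in replicates 1 to 3 of the same groups. Rn7s1, an RNA of the signal recognition particle, took 5.59% to 7.02% of a library here and at most 0.000791% there. A second entry, Rn7s2, took 5.58% to 6.71% here and had the same count as Rn7s1 in each library there. Whether the same reads were counted for both, also within the share of small noncoding RNA, was not tested. Ribosomal and transfer RNA of mitochondria differed between the groups without overlap, at 1.44% to 1.92% in PBS and 0.775% to 1.00% in 65–79*PE. The part of library composition in the results was not tested.

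The library of PBS replicate 6 stood apart from the other two of its group. Of 8650 genes with a mean of at least 10 CPM, 77 were more than 1.5-fold above and 156 more than 1.5-fold below both other PBS libraries, against at most 8 and 6 for PBS replicates 4 and 5. Lcn2, the siderophore-binding protein lipocalin 2, was at 14.6, 13.4 and 104 CPM in PBS replicates 4, 5 and 6. Csf1r, the receptor for macrophage colony stimulating factor, was at 363, 367 and 225 CPM in the same libraries. Some of the values it moved, and of the calls it decided, are given with and without it. The other 3 libraries with these replicate numbers, labelled 65–79*SE with IFNγ, replicates 4 to 6, had Irf1 at 11.5 to 12.9 CPM and H2-Aa at or under 0.168 CPM, within or close to the range of PBS. If the IFNγ of their label was received, they go against that label, and they were left out of the fit.

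**Figure D1:**
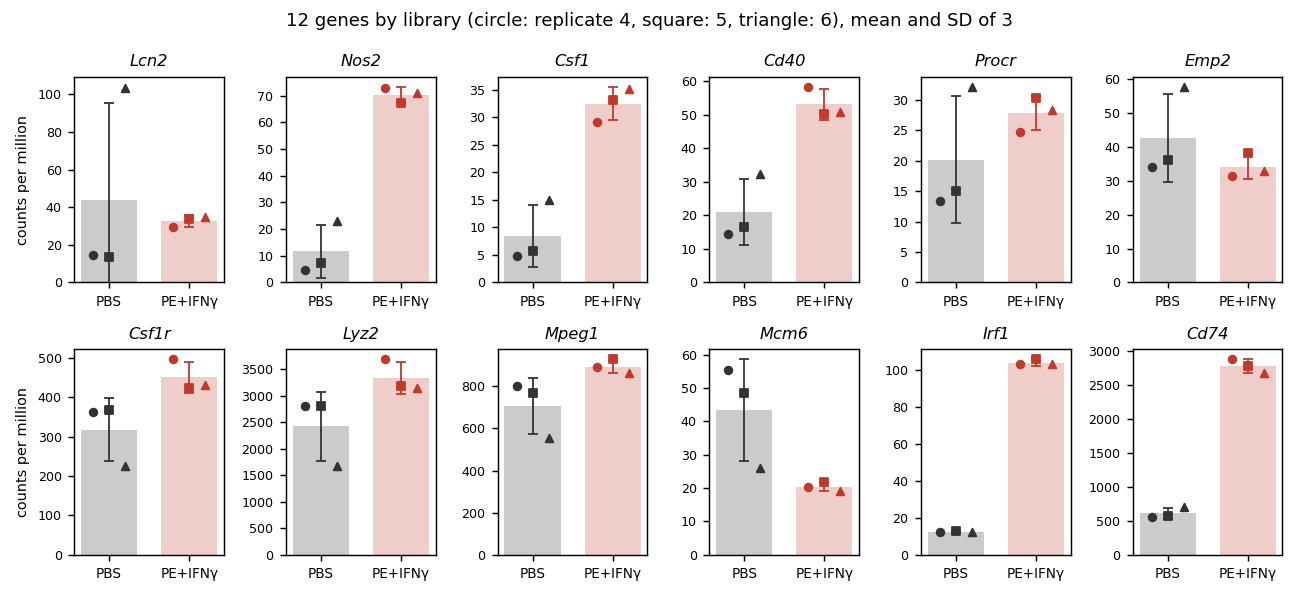
Level in CPM (linear axes) of 12 genes in PBS and in 65–79*PE with IFNγ, replicates 4 (circle), 5 (square) and 6 (triangle); bars give the mean of 3 libraries and whiskers the SD. The triangle of PBS lies apart for Lcn2, Nos2, Csf1, Cd40, Procr, Emp2, Csf1r, Lyz2, Mpeg1 and Mcm6, and close to the other PBS libraries for Irf1 and Cd74.

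A gene was called at an adjusted p under 0.05 in edgeR's quasi-likelihood test (Benjamini-Hochberg over all genes tested) together with a fold change over 1.5. Of 15560 genes tested, 1653 were called, which is 10.6%. In 65–79*PE 941 genes (6.05%) rose and 712 (4.58%) fell. Of these, 215 genes were over 4-fold higher and 79 over 4-fold lower. The 3 libraries of one group lay wholly above the 3 of the other for 6251 genes, or 40.2% of those tested, and for 935 of the 941 genes that rose and 710 of the 712 that fell. The median log2 fold change over all genes was -0.01. Of the called genes, 42 had at most 3 counts in every PBS library, and 6 had at most 3 in every 65–79*PE library. Such genes passed the filter on low counts only through the other group, so their direction was set by the filter. Members of the MHC class II, GTPase, chemokine and complement lists are among the 42. Without PBS replicate 6 the count was 1824, with 1030 higher and 794 lower.

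**Figure D2:**
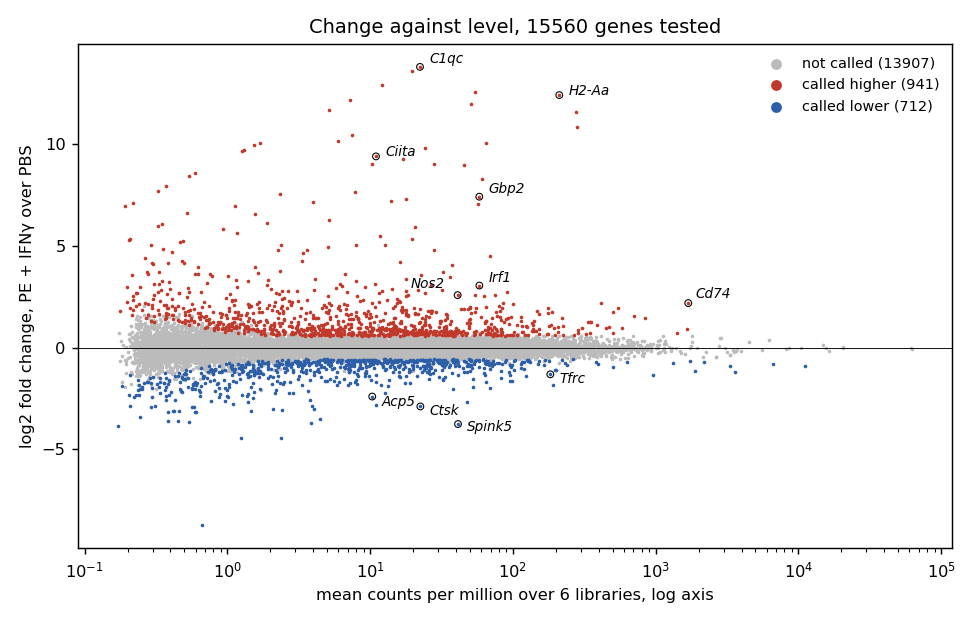
Log2 fold change of 65–79*PE with IFNγ over PBS against the mean level in CPM (log axis) for the 15560 genes tested, with the 941 called higher in red and the 712 called lower in blue. MHC class II, complement C1q and GBP genes lie far above most genes, and Spink5, at -3.77, lies lowest among called genes of at least 10 CPM that are protein-coding.

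Several transcription factors and feedback regulators of the IFNγ pathway rose, and the receptor chains were not called. Of 23 members tested in a list of 24, 12 rose and 1 fell, with a median log2 fold change of 0.64. Irf1, the first-line transcription factor of the response, was at 12.6, 12.9 and 12.2 CPM in PBS and at 103, 106 and 103 CPM in 65–79*PE, with no overlap and giving a change of 3.05 ± 0.07 on the log2 scale (standard error; adjusted p = 6.92e-09). Both sets of libraries were tight, so that the change was many times the spread between replicates. Ciita had at most 0.0708 CPM in any PBS library and 18.4, 23.2 and 24.4 CPM in 65–79*PE, at least 301.7-fold higher against the limit of 3 counts per library.

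Its relative Nlrc5, the regulator of MHC class I genes, rose from 51.4 ± 12.3 to 144 ± 9.89 CPM (SD, n = 3 for these and all later means). Batf2, a partner of IRF1 in activated macrophages, rose by 2.73 on the log2 scale, and Irf8, which maintains the myeloid lineage, by 0.98. Stat2, Irf5, Nmi, Socs1, Socs3 and Ptpn6 also rose. The calls of Irf5, at a log2 fold change of 0.64, and of Ptpn6, at 0.65, were lost without PBS replicate 6, at 0.53 and 0.56, which are under the fold threshold. Of the other factors, Irf2 (0.47), Stat3 (0.46), Irf9 (0.16) and Irf7 (-0.05) were not called, and Stat3 was called without PBS replicate 6, at 0.60. Socs1, the feedback inhibitor of JAK kinases, was at 0.843, 0.567 and 0.954 CPM in PBS and at 2.57, 2.48 and 3.04 CPM in 65–79*PE. The rise of Socs3, at a log2 fold change of 0.92 and an adjusted p of 0.0256, did not hold without PBS replicate 4, PBS replicate 5, PE replicate 5 or PE replicate 6 (adjusted p 0.0723 to 0.102). Usp18, a negative regulator of type I interferon signalling, fell from 65.3 ± 12.9 to 36.1 ± 0.978 CPM. Receptor and kinase genes had smaller values. Ifngr1 had a log2 fold change of 0.24, Ifngr2 of -0.49, Jak1 of 0.28 and Jak2 of 0.16.

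The windows from 250 bases before to 50 bases after the RefSeq start (build GRCm38.p6) are shown for 4 genes that rose, because they hold GAS or ISRE motifs. Capitals mark GAS (TTCNNNGAA) and ISRE (GAAA, any 2 bases, then GAAA), searched on both strands. Irf1, chr11:53769764-53770063, plus strand, with GAS starting at base -90 from the start site, and Gbp2, a guanylate binding protein, chr3:142620413-142620712, plus strand, with ISRE at -59, hold 1 match each. The table lists a second start for Irf1, whose window holds neither motif and is not printed. Socs1, chr16:10785487-10785786, minus strand, holds 2 ISRE matches that overlap each other. Cybb, the catalytic subunit of the phagocyte NADPH oxidase, chrX:9469275-9469574, minus strand, holds 3 ISRE matches.
Irf1: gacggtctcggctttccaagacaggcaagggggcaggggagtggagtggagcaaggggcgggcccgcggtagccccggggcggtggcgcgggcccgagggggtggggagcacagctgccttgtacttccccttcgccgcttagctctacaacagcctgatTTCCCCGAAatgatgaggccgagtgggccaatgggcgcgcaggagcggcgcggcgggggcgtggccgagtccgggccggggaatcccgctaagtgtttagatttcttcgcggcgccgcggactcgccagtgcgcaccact
Gbp2: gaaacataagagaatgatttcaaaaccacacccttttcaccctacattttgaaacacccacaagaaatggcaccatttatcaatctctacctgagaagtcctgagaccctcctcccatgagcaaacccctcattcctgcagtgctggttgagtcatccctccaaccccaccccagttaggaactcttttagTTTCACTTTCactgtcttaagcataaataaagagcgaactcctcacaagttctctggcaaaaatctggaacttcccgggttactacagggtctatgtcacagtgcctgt
Socs1: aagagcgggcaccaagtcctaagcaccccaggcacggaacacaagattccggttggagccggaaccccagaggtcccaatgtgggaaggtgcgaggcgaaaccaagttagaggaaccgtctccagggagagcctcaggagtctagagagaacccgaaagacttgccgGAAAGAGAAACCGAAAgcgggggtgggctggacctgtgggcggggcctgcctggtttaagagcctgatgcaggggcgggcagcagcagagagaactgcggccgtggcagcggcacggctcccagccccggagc
Cybb: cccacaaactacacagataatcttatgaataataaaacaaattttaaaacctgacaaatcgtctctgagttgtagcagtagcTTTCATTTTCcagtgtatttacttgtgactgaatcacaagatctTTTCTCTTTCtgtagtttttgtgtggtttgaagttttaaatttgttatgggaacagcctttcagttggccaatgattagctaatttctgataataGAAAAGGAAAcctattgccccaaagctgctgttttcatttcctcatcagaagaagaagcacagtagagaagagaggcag
A window with GAS was found for 9.55% and one with ISRE for 3.99% of the 27025 genes in the RefSeq table used here. A window was at hand for 75.7% of the protein-coding genes called higher, under the 80% set as a minimum, so a comparison of motif shares between called and other genes is void. A match describes these letters only.

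The classical chains of MHC class II went from 0.425 CPM or less to 371 CPM or more. Of 16 members tested 11 rose and none fell, at a median log2 fold change of 3.43. H2-Aa, H2-Ab1 and H2-Eb1, which encode the chains that present peptide to helper T cells, were at or under 0.425 CPM in every PBS library. H2-Aa reached 498, 371 and 400 CPM in 65–79*PE, H2-Ab1 626, 502 and 567 CPM, and H2-Eb1 648, 486 and 528 CPM. H2-Ea-ps, listed as a pseudogene, was at least 1493-fold higher. Reads of class II paralogs could be shared among near-identical copies, and only uniquely aligned reads were counted.

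Cd74, the invariant chain that guards the peptide groove, had a high level in PBS already. It was at 561, 568 and 700 CPM there and at 2882, 2781 and 2674 CPM in 65–79*PE, a log2 fold change of 2.19 ± 0.10 (adjusted p = 7.81e-07). The peptide-loading chains H2-DMa, H2-DMb1 and H2-DMb2 rose to 19.6 ± 1.65, 48.8 ± 7.22 and 35.7 ± 5.95 CPM, from 2.23 ± 0.138, 0.0412 ± 0.0405 and 0.219 ± 0.061 CPM. The antagonists of loading H2-Oa and H2-Ob rose as well but stayed under 1 CPM in each library. Another 5 members, which process antigen or bind class II promoters, were not called, with log2 fold changes of 0.30 for Ifi30, 0.13 for Ctss, 0.47 for Rfx5, -0.02 for Rfxap and 0.01 for Rfxank.

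**Figure D3:**
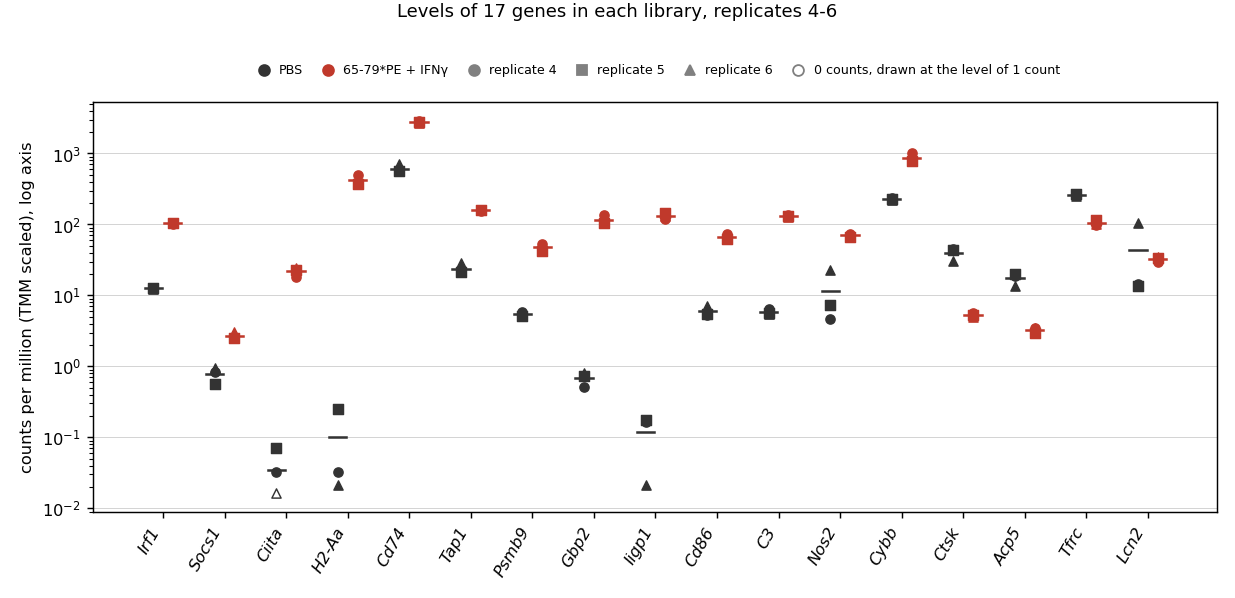
Level in CPM (TMM scaled, log axis) of 17 genes in each of the 6 libraries, PBS in black and 65–79*PE with IFNγ in red; dashes mark group means, and open symbols mark a count of 0 drawn at the level of 1 count. PBS and 65–79*PE do not overlap for 16 genes, of which Ctsk, Acp5 and Tfrc are lower in 65–79*PE and the others higher. For Lcn2 the groups overlap, with PBS replicate 6 above all libraries of 65–79*PE.

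The class I pathway rose nearly as a whole, with 20 of 23 members called higher, none lower and a median of 1.61. Psmb9, Psmb8 and Psmb10 are the catalytic subunits of the immunoproteasome, which cuts proteins into peptides for class I. Psmb9 rose from 5.55 ± 0.363 to 47.6 ± 4.79 CPM and Psmb8 from 37.7 ± 0.548 to 164 ± 16.5 CPM. Tap1, a subunit of the pump that moves these peptides into the endoplasmic reticulum, was at 21.1, 21.6 and 29.1 CPM in PBS and at 156, 158 and 159 CPM in 65–79*PE. H2-Q6, a nonclassical class I gene with close paralogs, rose by 2.17 on the log2 scale, H2-K1 by 1.55 and B2m, the light chain of class I molecules, by 0.91. The latter pair was chosen after its values were seen.

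Every tested member of the families of interferon-inducible GTPases rose. These were 11 of 11 guanylate binding proteins, at a median of 5.47, and 10 of 10 immunity-related GTPases, at a median of 7.64 or, with genes at the limit of detection set to their bound, 6.96. Members near 0 in PBS, among them Iigp1, Tgtp1 and Gm4951, passed the filter on low counts only through 65–79*PE. For these only a rise could be called, so the full counts were partly fixed by the filter. In all 21 the libraries of the groups did not overlap, against 40.2% of all genes tested. Gbp4 was at 0.389, 0.319 and 0.424 CPM in PBS and at 138, 114 and 113 CPM in 65–79*PE. Gbp2, whose promoter window is printed above, was at 0.519, 0.744 and 0.806 CPM and at 137, 105 and 106 CPM. Gbp8, chosen after its values were seen, had the lowest fold of its family and the highest level in PBS, 31.5 to 39.6 CPM, against 129 to 135 CPM.

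Iigp1, which loads onto the vacuoles of parasites, was at 0.162, 0.177 and 0.0212 CPM in PBS and at 118, 143 and 130 CPM in 65–79*PE. Tgtp1 and Tgtp2, near-identical neighbours whose counts are uncertain for that reason, rose to 56.3 ± 3.48 and 90.8 ± 5.11 CPM. Gm4951 was at least 283.0-fold higher. Irgm1, a regulatory member of the family chosen after its values were seen, had the lowest log2 fold change, 1.56, from 37.5 to 43.1 CPM in PBS. Ly6a, a surface antigen also known as Sca-1, was at least 1408-fold higher, at 103 ± 7.04 CPM in 65–79*PE, and Serpina3f, a protease inhibitor, at least 332.7-fold higher.

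**Figure D4:**
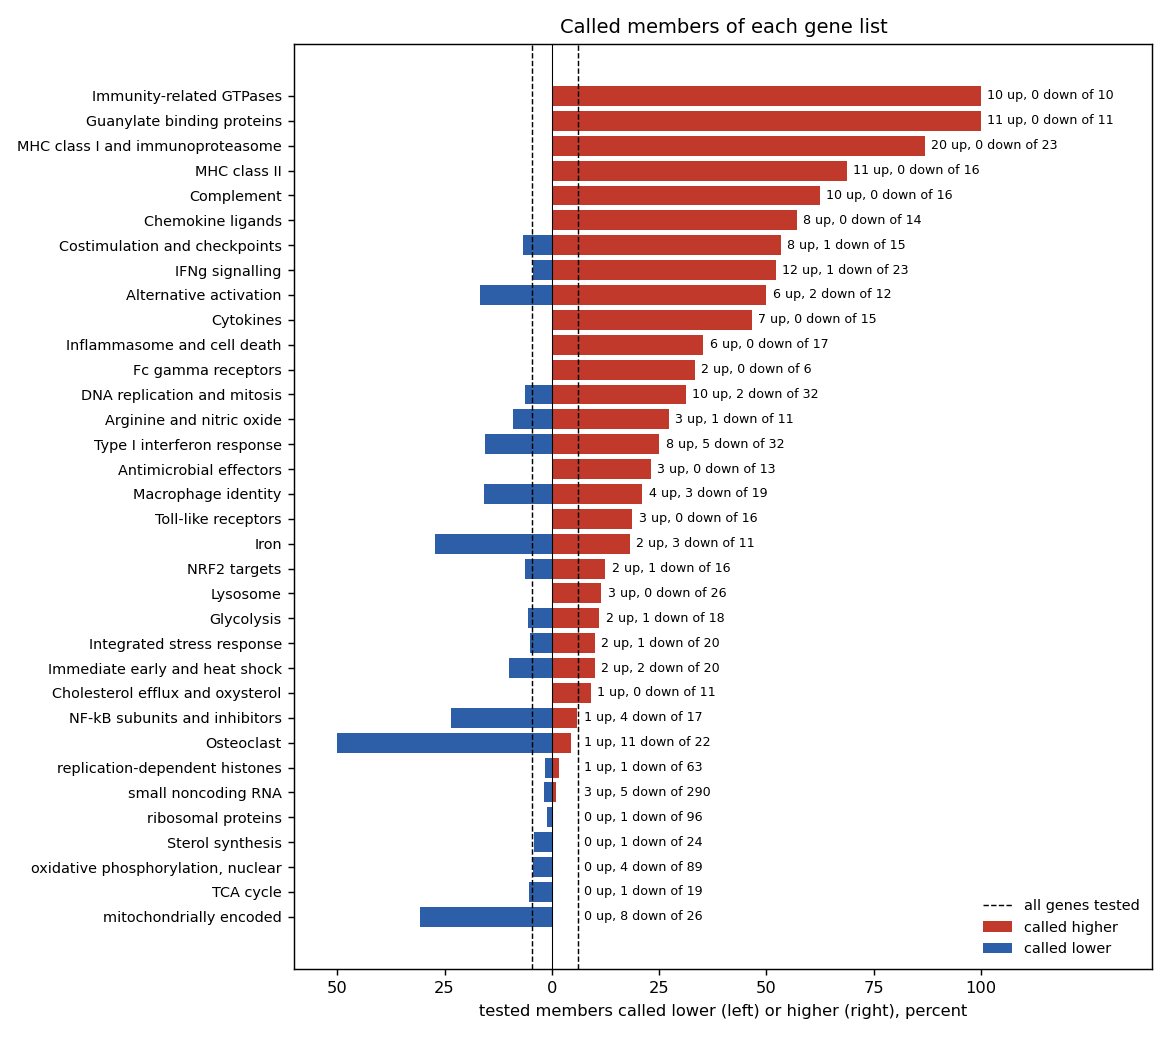
Percent of the tested members of each gene list called higher (red, right) or lower (blue, left) in 65–79*PE with IFNγ against PBS, with dashed lines at the shares over all genes tested, 6.05% and 4.58%. GTPase, MHC, complement and chemokine lists reach far to the right, and the osteoclast and mitochondrially encoded lists reach furthest to the left.

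Chemokine ligands rose in 8 of 14 tested members and fell in none, at a median of 1.56, against 6.05% higher and 4.58% lower over all genes tested. Of the 14, 9 had a positive log2 fold change. The summed level of the listed ligands was not higher, at 635 ± 160 CPM in PBS and 553 ± 58.2 CPM in 65–79*PE. Ccl2, which draws monocytes, was at 14.3, 14.7 and 23.5 CPM in PBS and at 46.3, 43.0 and 42.8 CPM in 65–79*PE. Cxcl16 rose from 12.02 ± 3.18 to 41.9 ± 10.3 CPM. The ligands of CXCR3, which draw T cells, were low in PBS. Cxcl10 rose from 0.502 ± 0.257 to 2.29 ± 0.511 CPM, and Cxcl9, chosen after its values were seen, from at most 0.0212 CPM to 17.7, 8.44 and 9.87 CPM, at least 164.7-fold.

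Of 15 cytokine genes tested 7 rose and none fell. Csf1, the growth factor of macrophages, was at 4.75, 5.74 and 14.9 CPM in PBS and at 29.2, 33.1 and 35.1 CPM in 65–79*PE, a log2 fold change of 1.93 ± 0.36 that became 2.65 without PBS replicate 6. Il6 rose from 0.591 ± 0.261 to 2.63 ± 0.219 CPM. Il18bp and Il27, 2 inducible regulators chosen after their values were seen, rose by 3.05 and 2.06 on the log2 scale. Tnf was not called, at 45.3, 43.1 and 55.0 CPM in PBS and 55.4, 54.8 and 51.6 CPM in 65–79*PE. Il12a and Il12b had no count in these 6 libraries, and Il1b stayed at or under 0.336 CPM.

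The markers that the study measured by PCR were followed one by one. Of 6 M1 (pro-inflammatory) markers tested, Nos2, Cxcl10, Ccl2 and Il6 rose, and Tnf and Il23a were not called. Of 4 M2 (tissue repair) markers only Mgl2 passed the filter, and it fell from 0.658 ± 0.129 to 0.145 ± 0.103 CPM (adjusted p = 0.0143). In replicates 1 to 3 of the same groups Mgl2 had a log2 fold change of 0.14 and was not called. Arg1 was at 0.0648, 0.0354 and 0.0212 CPM in PBS, above the limit of 3 counts in replicate 4 only, and had no count in 65–79*PE, and Chil3 and Ccl17 had no count.

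Nos2, the inducible nitric oxide synthase, and Ass1, which regenerates its substrate arginine, both rose. Nos2 was at 4.68, 7.29 and 23.2 CPM in PBS and at 73.0, 67.2 and 70.9 CPM in 65–79*PE. All 65–79*PE libraries lay above PBS replicate 6, the highest of its group. The log2 fold change was 2.58 ± 0.47 (adjusted p = 0.00418) and 3.61 without PBS replicate 6. Ass1 rose from 7.80 ± 0.535 to 55.8 ± 1.53 CPM. Arg2, an arginase that competes for the same substrate, fell from 0.742 ± 0.232 to 0.118 ± 0.038 CPM. The genes of tetrahydrobiopterin synthesis, the cofactor of Nos2, were not called, at log2 fold changes of 0.30 for Gch1, 0.01 for Pts and -0.01 for Spr. The arginine transporter Slc7a2 rose by 1.59 at 0.373, 0.346 and 0.249 CPM in 65–79*PE, a call lost in 8 of the alternatives run, among them DESeq2 (adjusted p = 0.102). In all, 3 of 11 tested genes of this list rose and 1 fell.

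Among 13 antimicrobial effectors tested, 3 rose and none fell. Cybb, shown above with its 3 ISRE matches, was at 236, 229 and 218 CPM in PBS and at 1003, 776 and 812 CPM in 65–79*PE. Acod1, which makes itaconate, rose from 18.8 ± 4.38 to 108 ± 7.95 CPM, and Slc11a1, a metal transporter of the phagosome, from 82.4 ± 15.7 to 189 ± 17.4 CPM. Lyz2, the macrophage lysozyme, was not called and is named after its values were seen. It was at 2797, 2797 and 1675 CPM in PBS and at 3686, 3188 and 3139 CPM in 65–79*PE, so the groups did not overlap, and PBS replicate 6 was the lowest library.

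Complement genes rose in 10 of 16 tested members, and none fell, at a median of 2.22. C1qb and C1qc, chains of the molecule that starts the classical pathway, had no count in any PBS library. C1qb reached 47.8, 34.8 and 35.6 CPM in 65–79*PE and C1qc 53.6, 38.0 and 42.7 CPM, at least 541.4-fold and 614.5-fold higher. C3, the central protein of the cascade, rose from 5.80 ± 0.489 to 132 ± 3.92 CPM, a log2 fold change of 4.51 ± 0.09 (adjusted p = 3.56e-09). C1ra, a protease of the same complex as C1q, rose by 3.36. Of 6 Fcγ receptors, Fcgr4 rose by 1.51 and Fcgr1 by 0.90, the latter from 74.7, 86.6 and 127 CPM to 181, 182 and 176 CPM.

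Costimulatory and checkpoint genes rose in 8 of 15 tested members and fell in 1. Cd86, a ligand that activates T cells through CD28, was at 5.25, 5.45 and 7.11 CPM in PBS and at 73.4, 61.4 and 65.2 CPM in 65–79*PE. Cd80, the other ligand of CD28 and chosen after its values were seen, fell by 0.69 on the log2 scale, from 3.75 to 4.50 CPM in PBS to 2.27 to 2.91 CPM. The inhibitory ligand Cd274, known as PD-L1, rose from 19.3 ± 3.43 to 71.2 ± 4.99 CPM, and Havcr2, known as TIM-3, from 18.8 ± 1.06 to 47.9 ± 1.60 CPM. Cd40 was at 14.3, 16.7 and 32.4 CPM in PBS and at 58.4, 50.3 and 50.8 CPM in 65–79*PE, a log2 fold change of 1.33, or 1.78 without PBS replicate 6.

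Of 17 inflammasome and cell death genes tested 6 rose and none fell, led by Zbp1, a sensor of Z-form nucleic acid, at 1.63 ± 0.886 and 30.6 ± 3.35 CPM, and by Casp1, the protease of the inflammasome, at 46.0 ± 3.12 and 120 ± 16.01 CPM. Of 16 Toll-like receptor genes tested 3 rose. Tlr9, the sensor of unmethylated DNA, went from 5.42 ± 0.469 to 26.4 ± 1.07 CPM, and Tlr1 rose by 0.88 on the log2 scale. In the list of NF-κB subunits and inhibitors 1 of 17 tested genes rose and 4 fell. Nfkbiz, a nuclear cofactor, rose by 1.55, while the inhibitors Nfkbia and Tnfaip3 fell by 0.62 and 0.72. The call of Nfkbia was lost without PE replicate 4, at a log2 fold change of -0.54.

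Genes of the type I interferon response split. Of 32 tested 8 rose and 5 fell, at a median of 0.12, and without PBS replicate 6 these counts were 12 and 3. Ifit2 rose from 7.78 ± 1.20 to 27.9 ± 1.40 CPM, Oasl2 from 5.62 ± 1.61 to 16.6 ± 0.465 CPM and Ifi204, a DNA sensor of the AIM2 family, from 31.1 ± 6.19 to 88.2 ± 7.94 CPM. Oas2 and Ddx58, sensors of viral RNA chosen after their values were seen, fell. Oas2 was at 47.2, 38.4 and 47.4 CPM in PBS and at 12.4, 17.97 and 17.98 CPM in 65–79*PE, and Ddx58 at 65.9, 67.7 and 73.5 CPM and at 32.2, 36.5 and 32.6 CPM. Irf7 was not called, at 71.3 ± 16.6 and 68.8 ± 11.1 CPM.

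Genes of osteoclasts, the bone-resorbing cells into which this line can differentiate, mostly fell among those called. Of 22 tested 11 fell and 1 rose, at a median of -0.64, and without PBS replicate 6 12 fell. Ctsk, the collagen-degrading protease cathepsin K, was at 44.6, 43.9 and 30.5 CPM in PBS and at 5.63, 5.30 and 5.04 CPM in 65–79*PE, a log2 fold change of -2.90 ± 0.16 (adjusted p = 2.30e-06). Acp5, the tartrate-resistant acid phosphatase, was at 18.5, 20.2 and 13.6 CPM and at 3.43, 2.91 and 3.45 CPM. Atp6v0d2, a proton pump subunit of osteoclasts, fell by 1.40 on the log2 scale and Ckb, a creatine kinase, by 1.04. The member that rose, Ocstamp, takes part in the fusion of osteoclasts and was at 0.843, 0.921 and 0.297 CPM in PBS and at 3.69, 1.93 and 2.38 CPM in 65–79*PE. Mmp9, a gelatinase, was at 5.75, 6.73 and 9.21 CPM in PBS and at 0.933, 0.864 and 0.862 CPM in 65–79*PE. Both were chosen after their values were seen.

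The 10 largest falls among protein-coding genes of at least 10 CPM held further genes of varied roles. Spink5, a serine protease inhibitor, was at 65.6, 68.5 and 97.0 CPM in PBS and at 4.66, 5.99 and 6.15 CPM in 65–79*PE, a log2 fold change of -3.77 ± 0.18. Igfbp4, which binds insulin-like growth factors, fell from 19.4 ± 6.62 to 2.62 ± 1.02 CPM, and Ndrg4 from 83.3 ± 20.4 to 12.9 ± 1.95 CPM. Arsb, a lysosomal sulfatase, and the membrane proteins Tmem176b and Cldn11 fell by 2.07, 2.26 and 1.90. Ndrg2 and Car6, a carbonic anhydrase, fell by 1.95 and 2.01. Slc9b2, a sodium-proton exchanger outside the naming rule and chosen after its values were seen, was at 1.36, 1.20 and 1.40 CPM in PBS and had no count in 65–79*PE.

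Among 19 genes of macrophage identity 4 rose and 3 fell. Cd36, a scavenger receptor, was at 134, 134 and 173 CPM in PBS and at 752, 649 and 629 CPM in 65–79*PE. Adgre1, which encodes the marker F4/80, rose from 51.0 ± 1.24 to 121 ± 11.5 CPM, and Lpl, a lipase, by 1.10 on the log2 scale. Cx3cr1, the fractalkine receptor and chosen after its values were seen, was at 5.24, 7.79 and 0.594 CPM in PBS and at 0.298, 0.230 and 0.113 CPM in 65–79*PE, with PBS replicate 6 far below the other PBS libraries. Of 12 tested genes in a list of alternative activation 6 rose and 2 fell. The rises included Clec7a, the receptor dectin-1 for fungal glucan, at 15.3 ± 0.624 and 93.0 ± 13.9 CPM, and Tgm2, a transglutaminase, at 22.8 ± 4.58 and 88.1 ± 1.49 CPM, while the lectins Clec10a and Mgl2 fell. Without PBS replicate 6 this list had 4 rises, and that of Msr1 was among those lost (log2 fold change 0.60, or 0.57 without the library). The fall of Clec10a was lost without PBS replicate 4, PBS replicate 5, PE replicate 4 or PE replicate 6 (adjusted p 0.052 to 0.0771).

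Iron genes were called in both directions, 2 of 11 higher and 3 lower. Tfrc, the transferrin receptor that imports iron, was at 267, 267 and 251 CPM in PBS and at 98.4, 115 and 100.4 CPM in 65–79*PE, while Slc40a1, the exporter ferroportin, was at 34.9, 35.2 and 42.2 CPM and at 74.8, 108 and 91.5 CPM. The iron reductase Steap3 fell by 0.86 on the log2 scale. In each of the lists that follow only a few genes were called. Their shares lay above or below those over all genes tested, of which 6.05% rose and 4.58% fell. In glycolysis 2 of 18 genes rose and 1 fell. Hk3, a hexokinase, rose from 306 ± 28.2 to 586 ± 17.7 CPM, and Ldha, lactate dehydrogenase, fell from 789 ± 87.9 to 480 ± 19.6 CPM. Idh2 was the only one of 19 genes of the TCA cycle to be called, and it fell by 0.82. In sterol synthesis 1 of 24 genes fell and none rose. Among 26 lysosomal genes 3 rose, among them Ctsc, a protease that activates granule enzymes, from 72.2 ± 13.2 to 278 ± 61.2 CPM, and Psap, a cofactor of lipid breakdown, from 1065 ± 87.2 to 1770 ± 116 CPM.

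Mitochondrially encoded genes fell in 8 of 26 tested members and rose in none, at a median of -0.52. They took 4.86% ± 0.449 of the counts in PBS and 3.42% ± 0.102 in 65–79*PE. mt-Cytb was at 1532, 1494 and 1085 CPM in PBS and at 531, 543 and 558 CPM in 65–79*PE, a log2 fold change of -1.33 ± 0.12. The ribosomal RNA mt-Rnr2 was at 14560 ± 2261 and 7757 ± 945 CPM. PBS replicate 6 was the lowest PBS library for both genes, and without it 10 members fell. Of 89 nuclear genes of oxidative phosphorylation 4 fell, led among those over 10 CPM by Uqcrh, a subunit of complex III, at 89.0 ± 15.3 and 36.9 ± 2.54 CPM, and none rose. The share that fell was close to the 4.58% over all genes tested. Of 96 genes whose symbol starts as a ribosomal protein 1 fell. It was Rps6ka2, which encodes a kinase and not a part of the ribosome.

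Genes of cell division rose in 10 of 32 tested members and fell in 2. Bub1b, Cdc20 and Ccnb1 act in mitosis. Bub1b was at 41.0, 41.4 and 35.1 CPM in PBS and at 117, 68.1 and 82.1 CPM in 65–79*PE, with PE replicate 4 above the rest. Mcm6, part of the helicase that opens DNA for replication, was at 55.3, 48.6 and 26.1 CPM in PBS and at 20.3, 21.9 and 19.1 CPM in 65–79*PE. Without PBS replicate 6 the list had 6 rises and 4 falls, so these counts depend on that library. Replication-dependent histones were called in 2 of 63 tested genes, 1 in each direction, against 10.6% of all genes tested. Their summed level was 4529, 3550 and 2171 CPM in PBS and 5111, 3598 and 3852 CPM in 65–79*PE, so PBS replicate 6 was again the lowest. Without it none of these genes rose, 3 fell, and the median log2 fold change of 0.26 became -0.01.

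The next lists also held only a few called genes each. Apart from small noncoding RNA, their shares were above the 6.05% higher and 4.58% lower over all genes tested. Of 20 genes of the integrated stress response 2 rose and 1 fell. Ddit3, a factor of the integrated stress response, rose from 208 ± 53.6 to 404 ± 28.4 CPM and Trib3 by 0.83 on the log2 scale, while Atf5 fell by 0.70. Of 16 targets of NRF2 2 rose and 1 fell. Prdx1, a peroxiredoxin, rose from 397 ± 36.0 to 776 ± 65.6 CPM, Osgin1, chosen after its values were seen, rose by 0.73, and Gstm1 fell by 0.81. In the list of immediate early and heat shock genes 2 of 20 rose and 2 fell. Jun, a subunit of AP-1, was at 38.6, 32.0 and 26.4 CPM in PBS and at 10.9, 14.3 and 16.5 CPM in 65–79*PE, and Atf3 and Dusp1 rose by 0.81 and 0.63, the latter chosen after its values were seen. The fall of Fos was lost without PBS replicate 4, PBS replicate 5, PE replicate 5 or PE replicate 6 (adjusted p 0.063 to 0.0847). Of 290 small noncoding RNAs that passed the filter, of 5951 in the table, 3 rose and 5 fell at a median of 0.00. Both counts came to less than the shares over all genes.

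The same contrast was measured in replicates 1 to 3, libraries with little RNA lacking a poly(A) tail. There 2889 of 14892 genes tested were called. Of the 1653 calls in replicates 4 to 6, 1087 (65.8%) were called in both sets, which is 37.6% of the calls in replicates 1 to 3, and 1082 of them had the same direction. The difference between the sets was itself tested as an interaction over 12 libraries. It passed an adjusted p of 0.05 in 1363 of 16444 genes (8.29%), with the contrast more positive in replicates 4 to 6 for 951 and more negative for 412. Among the genes called in replicates 4 to 6 and tested here, 246 of 1638 passed. The count of 1363 depended on single libraries. It was 757 without PBS replicate 6, 801 without PBS replicate 5, 605 without PE replicate 1, 527 without PE replicate 3, 879 without PE replicate 4, 716 without PE replicate 5 and 641 without PE replicate 6. The make-up of the libraries and the set of replicates cannot be told apart.

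**Figure D5:**
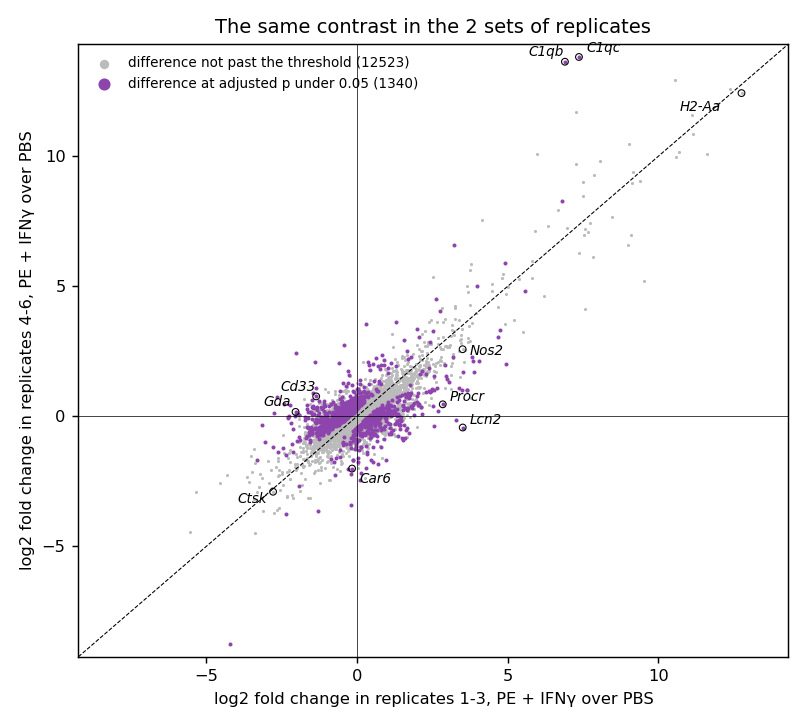
Log2 fold change of 65–79*PE with IFNγ over PBS in replicates 4 to 6 against that in replicates 1 to 3 for 13863 genes tested in both, with the 1340 whose difference passed an adjusted p of 0.05 in purple; the dashed line marks equal change. H2-Aa and Ctsk lie near the line, C1qb and C1qc above it, and Lcn2 and Procr below it.

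In the IFNγ signalling list 7 of 23 members tested passed the test of the difference, 6 with a contrast that was higher here and 1 lower. Irf5 had a log2 fold change of 0.64 here and 0.06 in replicates 1 to 3 (adjusted p of the difference 0.0173), and Irf7 of -0.05 and 0.76 (0.0428). For other genes of the IFNγ response the difference did not pass the test, which does not show that the sets were alike. Irf1 had a log2 fold change of 3.05 here and 2.84 in replicates 1 to 3 (adjusted p of the difference 0.143), and Cd74 of 2.19 and 2.47 (0.320). Ctsk had one of -2.90 and -2.79 (0.868). Larger changes in replicates 4 to 6 were measured for C3, at 4.51 and 2.64 (difference 1.92 ± 0.11, adjusted p = 5.89e-07), for Cybb, at 1.92 and 0.70 (difference 1.27 ± 0.16), and for Tgm2, at 1.95 and 0.39. Spink5 fell further, at -3.77 and -2.35. In the type I interferon list 7 of 32 members passed the test, and for all 7 the contrast was lower here. Of 24 sterol genes 11 passed, all with a contrast that was higher here, at a median log2 fold change of -0.21 against -0.61. Histone genes showed the same direction in 15 of 63, with a median of 0.26 (-0.01 without PBS replicate 6) against -1.17.

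The calls went in opposite directions in 5 genes, and among protein-coding genes over 10 CPM these were Cd33 and Dner. Cd33, an inhibitory receptor of myeloid cells, was at 69.3, 66.3 and 51.6 CPM in PBS and at 98.4, 111 and 109 CPM in 65–79*PE, a log2 fold change of 0.77, against -1.36 in replicates 1 to 3. Dner, a ligand of Notch chosen after its values were seen, had log2 fold changes of -0.94 here and 0.65 in replicates 1 to 3. The ribosomal RNA mt-Rnr1 fell by 1.16 here and had a log2 fold change of 0.12 in replicates 1 to 3 (adjusted p of the difference 0.00783). Among the markers that the study measured by PCR, the difference passed for Mgl2, Tnf and Il6. Mgl2 had log2 fold changes of -2.19 here and 0.14 in replicates 1 to 3 (adjusted p of the difference 0.0194). Tnf had 0.17 and 0.83 (0.0431), and Il6 had 2.13 and 4.06 (0.0416).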

How the data were processed

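RNA was sequenced as single-end reads from libraries made with a TruSeq kit. The deposited values are whole-number counts per gene, not normalized: the authors counted uniquely aligned reads with featureCounts on GRCm38.p5. The aligner and the strand option are not given in the sources used here. The submitters' processing notes name DESeq2 1.16.1 and R 3.4.1. The second table of the series, with Il-4, was not used. Of 49568 gene names 95% matched GENCODE, which gave gene types, and 26 names had become dates.

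Groups came from the labels. Counts of PBS and 65–79*PE, replicates 4 to 6 (26739977 to 63155889 per library), were tested with edgeR 4.0.16 in R 4.3.3 (filterByExpr, TMM, quasi-likelihood test) with Benjamini-Hochberg adjustment. The test was checked on simulated data. The study describes its replicates as biological, from fewer independent experiments than replicates, so replicates 4 to 6 may come from the same experiment. The labels do not name cultures or experiments, and p-values measure only the spread between these samples. The replicate numbers did not pair the samples. Alternatives were RLE scaling, DESeq2 1.42.0, other filters, thresholds and sets of libraries, a replicate block, and leaving out each library.

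The members and lists were chosen with earlier results of these data known. Named are the 10 largest rises and falls of at least 10 CPM, up to 4 called genes of each list over 10 CPM, all genes of 5 lists (IFNγ signalling, MHC class II, arginine and nitric oxide, both PCR marker lists), and the 5 largest differences between replicate sets each way. Other genes named are said to be chosen after their values were seen, or belong to marker lists. Promoter windows are from RefSeq. Some genes that the rule names are not reported here.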

Additional observations from a re-analysis of the deposited data

Results flagged for a closer look

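The difference between replicates 4 to 6 and replicates 1 to 3 in the change from PBS to 65–79*PE with IFNγ was largest, among protein-coding genes of at least 10 CPM, in 10 genes. It was negative for Lcn2 at -3.89, Procr at -2.34, Emp2 at -1.82, Car6 at -1.80 and Tenm4 at -1.79 on the log2 scale, and positive for C1qb at 6.74, C1qc at 6.46, Gda at 2.26, Cd33 at 2.17 and Hist1h2bf at 2.16. Each passed the edgeR test of the interaction, at adjusted p between 4.29e-05 for Cd33 and 0.0149 for Tenm4. DESeq2 gave no adjusted p for the difference of Lcn2.

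PBS replicate 6 was the highest PBS library for Lcn2, Procr, Emp2, Car6 and Tenm4. Lcn2 was at 14.6, 13.4 and 104 CPM in PBS and at 29.3, 33.6 and 35.0 CPM in 65–79*PE, and its log2 fold change of -0.43 became 1.22 without PBS replicate 6, against 3.51 in replicates 1 to 3. Procr, the endothelial protein C receptor, was at 13.4, 14.9 and 32.1 CPM and at 24.7, 30.3 and 28.3 CPM, and its log2 fold change of 0.46 became 0.98, against 2.85. Emp2 had a log2 fold change of -0.32 here, -0.04 without PBS replicate 6 and 1.55 in replicates 1 to 3. Tenm4 had one of -0.70, -0.32 without that library and 1.14 in replicates 1 to 3. Car6 was at 85.5, 93.9 and 151 CPM in PBS and at 17.5, 34.7 and 29.4 CPM in 65–79*PE, and had a log2 fold change of -0.17 in replicates 1 to 3.

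C1qb and C1qc had no count in PBS replicates 4 to 6 and averaged 0.144 ± 0.0339 and 0.109 ± 0.0676 CPM in PBS replicates 1 to 3. Their fitted differences of 6.74 and 6.46 depend on the prior count for that reason. In 65–79*PE they averaged 39.4 ± 7.28 and 44.8 ± 7.99 CPM here and 17.8 ± 1.60 and 19.1 ± 0.944 CPM in replicates 1 to 3.

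Gda, guanine deaminase, was at 15.4 ± 5.18 CPM in PBS and 17.4 ± 3.32 CPM in 65–79*PE, against 20.6 ± 6.86 and 5.00 ± 0.303 CPM in replicates 1 to 3. Cd33 rose here and fell there. The histone gene Hist1h2bf was at 15.6 ± 5.60 and 24.2 ± 4.86 CPM here and at 2.09 ± 0.599 and 0.747 ± 0.108 CPM in replicates 1 to 3.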

How the results depend on the processing

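The count of called genes stayed between 1333 and 1887 under RLE scaling, DESeq2, other filters, other sets of libraries and with each library left out. Without 1 library it ran from 1333 to 1824, with 797 to 1030 genes higher and 533 to 794 lower. It was 3593 (1794 higher, 1799 lower) with no fold threshold and 868 (541 higher, 327 lower) at a fold over 2. Same-numbered samples did not deviate together (r of -0.021, -0.0416 and 0.0463), and the replicate block gave 1555 calls. Genes past the test of the difference between replicate sets, 1363, were 762 with the replicate block and 527 to 1287 without 1 library.

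Of 155 named genes tested, 137 held their call in each alternative and 17 lost or gained it in some. Lcn2, at a log2 fold change of -0.43, reversed to 1.22 without PBS replicate 6 and was -0.86 without PBS replicate 4, its range without 1 library. Among the 17 were Irf5, Socs3, Ptpn6, Clec10a, Fos and Slc7a2, and the cause was not tested. A count of 0 allowed up to 0.0475 CPM in PBS replicate 4, the deepest library, and up to 0.112 CPM in PE replicate 4, the shallowest. A gene with no count therefore cannot be told from one under these levels.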
